A study of Mus musculus with 10 samples.

Results

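The effect of losing RhoA on transcript levels was compared between cultured and freshly isolated mouse keratinocytes. The quantity described is a difference of 2 changes on the log2 signal scale: KO minus control in culture, minus KO minus control in fresh cells. A positive value means that the culture change was the higher of both, and a negative value that it was the lower. It was computed for 18773 of 45037 probe sets, those above the median signal of an array on at least 2 arrays in both conditions, and these stood for 9851 genes. The 10 arrays of the series all entered: 2 of fresh control, 2 of fresh KO, 3 of cultured control and 3 of cultured KO cells. The KO groups had the genotype RhoA fl/fl K5 cre, with both RhoA alleles floxed and a Cre recombinase driven by the keratin 5 promoter, which is active in basal keratinocytes. The controls, which the titles call Wildtype, were RhoA fl/+ K5 cre, so they carried the same Cre and 1 floxed allele, and the comparison sets loss of both alleles against loss of 1. The source tissue was skin, fresh cells came from epidermis, and cultured cells were primary keratinocytes; ages, culture conditions and animals are not named. The titles call the samples biological replicates, and p-values rest on the spread of these samples alone.

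RhoA is a small GTPase that switches between a GDP-bound and a GTP-bound state under the control of exchange factors (GEFs), GTPase-activating proteins (GAPs) and dissociation inhibitors (GDIs). In its active state it binds kinases and formins that build contractile actin and non-muscle myosin II filaments, and at the end of mitosis the exchange factor Ect2 activates it at the cell equator, where the contractile ring forms. Keratinocytes divide in the basal layer, leave it, and make desmosomes, keratins and cornified envelope proteins as they move outwards. The comparison asks whether the transcripts that go with loss of RhoA in a dish are those that go with its loss in the epidermis.

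Signals are linear intensities of Affymetrix Mouse Genome 430 2.0 arrays, and the number of arrays limits the precision of every value. Fresh and cultured arrays lie on different scales, with array medians of 64.09 to 64.80 in fresh cells and 7.75 to 8.0 in culture, so no level is set across conditions and each change was taken within its own. In culture a level near 8 is a floor. The highest signal of an array was 31541 to 32618 in fresh cells and 111660 to 123446 in culture. Signals below 10 made up 0.102 to 0.14% of probe sets in fresh cells and 53.9 to 54.3% in culture. Log2 changes may therefore be compressed unequally, which limits every comparison of their sizes between conditions. How far they are was not tested. Arrays of 1 group correlated across probe sets at 0.982 to 0.992 in fresh cells and at 0.988 to 0.996 in culture. The keratins of basal cells, Krt5 and Krt14, read 21546 to 27346 on the fresh arrays and 46739 to 59207 on the cultured ones. Krt15, also a basal keratin, was at 3.76 to 4.69 on every cultured array, at the floor, and at 17211 to 20241 in fresh cells. Fresh KO replicate 2 stood apart: the inner root sheath keratin gene Krt25 read 10946 there against 62.2 to 282 on the other fresh arrays. Of 26 hair follicle genes on the array it had 26 above its median signal, against 14 to 23 on the other fresh arrays, and their summed signal was 78094 against 23870 to 26804. Not every gene of that list was highest there: Lgr5 read 200 against 228 to 266, and Cd34 402 against 601 to 658. The 11 melanocyte genes summed to 5247 there against 1400 to 1680, and the 16 Langerhans and myeloid genes to 15023 against 24506 to 33056. Calls of named genes that change without it are given both ways.

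Rhoa itself, on its brightest probe set, gave 3526 and 4059 in fresh control, 4398 and 4296 in fresh KO, 11249, 9879 and 9240 in cultured control and 8209, 7839 and 7628 in cultured KO. The KO arrays lay below the control arrays in culture and above them in fresh cells. The log2 change was -0.35 (SE 0.08) in culture and 0.20 (SE 0.09) in fresh cells. The difference of -0.56 (SE 0.12) did not pass (adjusted p = 0.0574 in the test that combines both limma fits). The second tested probe set had the same order of groups in culture, from 10199 to 10811 in KO against 11512 to 15352 in control, and read 1875 and 1945 in fresh KO against 1443 and 1811 in fresh control. Whether either probe set reads sequence that Cre removes could not be settled, and these levels therefore do not check the labels.

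The measured RhoA effects of both conditions were only weakly correlated across probe sets. The changes correlated at r = 0.07 (Spearman's rank correlation 0.02) over 18773 probe sets, given as a description since probe sets share arrays and are not replicates, and 50.2% had the same sign. Without fresh KO replicate 2 the correlation was 0.13, and over the 10 ways of leaving out 1 array it ran from 0.007 to 0.134. Noise in changes taken from so few arrays lowers such a correlation. It therefore does not show how far the underlying effects differ. The SD of the changes was 0.375 in culture and 0.277 in fresh cells. Where KO and control arrays did not overlap in either condition, 520 probe sets (2.77%) were higher in KO in both, 703 (3.74%) were lower in both, 386 (2.06%) were higher in culture and lower in fresh cells, and 758 (4.04%) were lower in culture and higher in fresh cells. The plot of both effects shows a cloud around the origin with arms along the culture axis and toward its upper left.

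**Figure D1:**
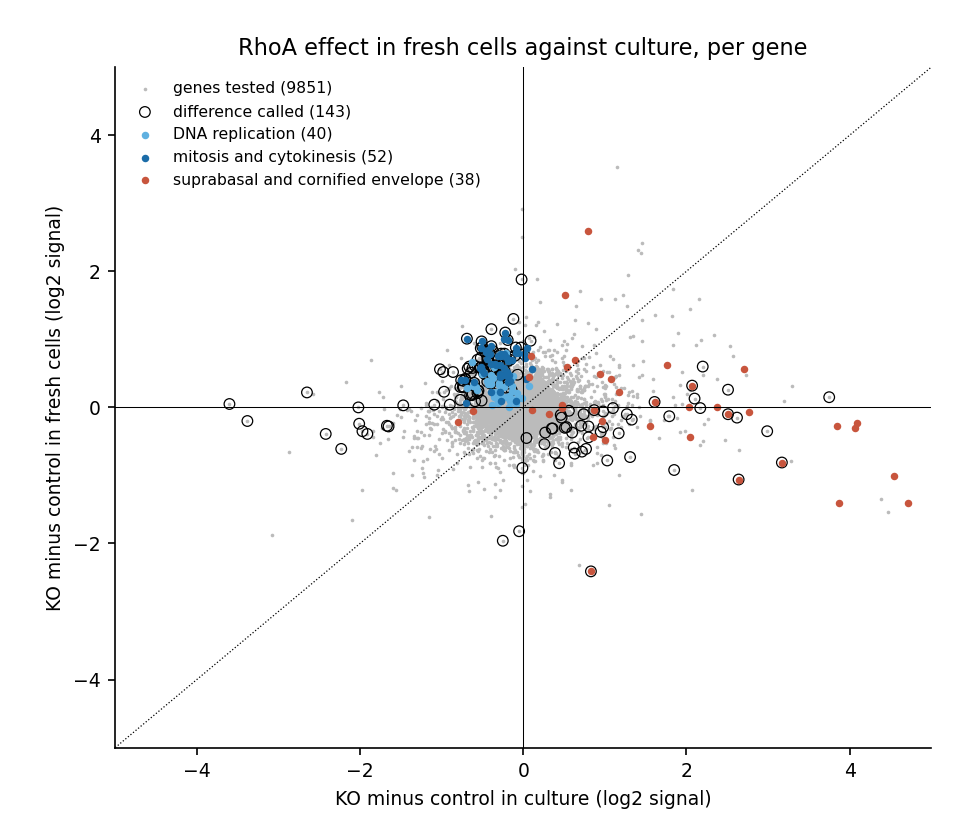
Change of each of 9851 genes between KO and control in culture (horizontal) and in fresh cells (vertical), on the log2 signal scale; open circles mark the 143 genes whose difference was called, colours mark 3 gene lists, and on the dotted line both effects are equal. All 52 mitosis and 40 DNA replication genes lie on the upper left side of the dotted line, and 30 of 38 suprabasal genes lie on its lower right side.

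The difference was called (adjusted p under 0.05) for 221 probe sets, 1.18% of those tested, with the culture effect higher for 83 (0.442%) and lower for 138 (0.735%). At an unadjusted p under 0.05 there were 3453 (18.4%), 1429 with the culture effect higher (7.61%) and 2024 with it lower (10.8%). Of the 221 called, 186 had changes of opposite sign in both conditions, while 50.2% of all probe sets tested had the same sign. Choosing probe sets by a large difference favours opposite signs, so this count and the medians of the called only describe them. The 83 had a median change of 0.98 in culture and -0.30 in fresh cells, and for 66 of them the culture change was the larger in size. The 138 had a median change of -0.52 in culture and 0.48 in fresh cells, and for 69 the culture change was the larger in size and for 69 the fresh change. By the probe set that stands for a gene, 143 genes were called (1.45%), 49 with the culture effect higher (0.497%) and 94 with it lower (0.954%). Within the conditions 66 of the 18773 probe sets passed in culture (0.352%), and in fresh cells limma called 0, with 2581 (13.7%) at an unadjusted p under 0.05 and 6 called in a single fit over all 10 arrays.

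How many probe sets are called depends on how the spread is pooled and on single arrays. On simulated data this combined test called more unchanged probe sets than its threshold allows, and a single fit over all 10 arrays with an interaction term called fewer of them; on the real arrays that fit called 78 (0.415%), 76 of them among the 221. With the smaller of both fits' degrees of freedom the combined test called 0, with 2641 at an unadjusted p under 0.05. The count was 2 without cultured control replicate 3, 24 and 63 without fresh control replicate 2 or 1, 74 without cultured KO replicate 3, 359 without cultured control replicate 1, 149 without fresh KO replicate 2, and 1507 without fresh KO replicate 1. When all 10 arrays were quantile normalized together 63 were called, 31 of them with the culture effect higher (49.2%, against 37.6% of the 221). Of the 62 called genes named below, 34 also passed in the single fit (called "in both tests" here), 60 lost the call without cultured control replicate 3, and Sh3kbp1 and Ctla2a kept it whichever of the 10 arrays was left out. The direction of all 62 was the same under each left-out array and each of 5 other scalings, but only 30 kept the call in all 5 scalings. With all 10 arrays quantile normalized together, Ctla2a had a difference of 0.84 (combined test, adjusted p = 0.128) and Gsdmc2 one of 1.90 (adjusted p = 0.25). Called genes not marked "in both tests" did not pass in the single fit, except Rfc4 (adjusted p = 0.0492 there).

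Genes of mitosis and cytokinesis gave the broadest difference. All 52 tested members of that list had a negative difference, against 55.9% of all genes. Of the 52, 25 were called (48.1%, against 0.954% of all genes) and 11 passed in the single fit. An unadjusted p under 0.05 was found for 50 of the 52 (96.2%, against 12.2% of all genes). Their median change was -0.27 in culture and 0.64 in fresh cells, and the median difference was -0.95 against -0.05 over all genes tested. In 33 of the 52 the groups did not overlap in either condition, lower in cultured KO and higher in fresh KO, a pattern that 464 of 9851 genes (4.71%) had. Without fresh KO replicate 2, the array with the highest summed hair follicle signal, the median change in fresh cells was 0.62, the median difference was -0.92 and 52 of 52 were negative. The number called was 0 without fresh control replicate 2 or cultured control replicate 3 and 35 without fresh KO replicate 1, while the median difference stayed between -1.09 and -0.81 whichever array was left out. That more cells in cycle and more RNA per cycling cell cannot be told apart holds for this and every list below, since these are bulk samples.

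Promoters of this list share sequence elements, and those of 4 called members are shown so that these elements can be read beside the values (RefSeq, assembly GRCm38.p6). Each runs from 250 bases before the gene's start to 50 after it. Capitals mark the cell cycle homology region (CHR, letters TTTGAA or TTCGAA) and the CCAAT box, on either strand, so that ATTGG is a CCAAT box and TTCAAA a CHR on the opposite strand. Neither motif contains the other. Ccnb2 encodes a cyclin that drives entry into mitosis. All 4 members, Ccnb2 among them, were taken for a small p of the difference, so each was chosen through its values. The coordinates are chr6:66534971-66535270 on the + strand for Mad2l1, chr5:30666636-30666935 on the + strand for Cenpa, chr9:70421505-70421804 on the - strand for Ccnb2 and chr15:99651607-99651906 on the - strand for Racgap1.
Mad2l1: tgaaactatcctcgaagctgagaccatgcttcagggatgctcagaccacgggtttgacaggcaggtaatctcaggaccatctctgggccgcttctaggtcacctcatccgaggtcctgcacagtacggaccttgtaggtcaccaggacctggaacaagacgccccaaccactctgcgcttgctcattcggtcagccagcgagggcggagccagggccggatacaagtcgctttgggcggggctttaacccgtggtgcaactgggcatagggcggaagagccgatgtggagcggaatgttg
Cenpa: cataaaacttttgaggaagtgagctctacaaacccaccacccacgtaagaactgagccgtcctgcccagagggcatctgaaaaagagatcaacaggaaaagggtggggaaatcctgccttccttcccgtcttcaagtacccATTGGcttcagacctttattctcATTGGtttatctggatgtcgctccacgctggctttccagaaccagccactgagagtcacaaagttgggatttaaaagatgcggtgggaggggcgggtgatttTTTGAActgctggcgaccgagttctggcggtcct
Ccnb2: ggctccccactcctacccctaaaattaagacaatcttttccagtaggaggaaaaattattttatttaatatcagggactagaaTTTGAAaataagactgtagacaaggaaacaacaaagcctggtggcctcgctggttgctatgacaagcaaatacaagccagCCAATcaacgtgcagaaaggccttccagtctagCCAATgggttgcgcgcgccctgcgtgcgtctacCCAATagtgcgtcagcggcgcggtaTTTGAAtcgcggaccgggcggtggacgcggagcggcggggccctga
Racgap1: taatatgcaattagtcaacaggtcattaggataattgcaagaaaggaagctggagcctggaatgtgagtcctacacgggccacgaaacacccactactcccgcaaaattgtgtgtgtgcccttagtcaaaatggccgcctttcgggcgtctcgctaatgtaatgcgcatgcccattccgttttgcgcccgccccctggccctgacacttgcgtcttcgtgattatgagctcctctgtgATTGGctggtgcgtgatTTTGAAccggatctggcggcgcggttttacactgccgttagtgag

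In the Cenpa window the CHR begins at base 17 after the start, and in the Racgap1 window at base 6 with a CCAAT box at -12. The Mad2l1 window holds neither set of letters. Of the 52 tested members 43 had a promoter in the table, and 32 of these (74.4%) held a CHR, 30 (69.8%) a CCAAT box and 27 (62.8%) both. Among 8076 tested genes with a promoter the shares were 13.5%, 38.8% and 5.7%. Of 33 DNA replication promoters 6 (18.2%) held a CHR and 19 (57.6%) a CCAAT box. Of the called genes with a lower culture effect outside both cell cycle lists, 57 had a promoter and 8 of these (14.0%) held a CHR. A match is a description of the letters, not of a factor bound there.

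Among the kinase and cyclin genes of the list, Ccna2, the cyclin of S phase and G2, read 462 and 333 in fresh control and 732 and 706 in fresh KO. The cultured control arrays gave 7122, 5795 and 6433 and the cultured KO arrays 4141, 4759 and 4591. KO arrays were the higher in fresh cells and the lower in culture, without overlap. The log2 change was 0.87 in fresh cells and -0.52 in culture, a difference of -1.39 (SE 0.20, adjusted p = 0.0211, in both tests). Aurkb, the kinase of the chromosomal passenger complex, read 116 and 74 in fresh control, 198 and 177 in fresh KO, 2616, 2364 and 2795 in cultured control and 1484, 1678 and 1652 in cultured KO. Its groups also did not overlap, and its difference of -1.70 (SE 0.25, adjusted p = 0.0362, in both tests) was the largest of the list. Cdc25c, the phosphatase that activates Cdk1, had changes of -0.76 in culture and 0.40 in fresh cells (difference -1.16, SE 0.20, adjusted p = 0.0216, single fit 0.0545).

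Centromere and checkpoint genes had differences of the same sign. Cenpa, which encodes the histone H3 variant of centromeres, read 535 and 458 in fresh control and 809 and 912 in fresh KO, against 4061, 3490 and 3874 in cultured control and 2769, 3400 and 3336 in cultured KO. The KO arrays were the higher in fresh cells and the lower in culture, with a narrow gap in culture. Its difference was -1.06 (SE 0.17, adjusted p = 0.0201, in both tests). Mad2l1, a spindle checkpoint protein gene, had changes of -0.23 in culture and 0.79 in fresh cells (difference -1.02, SE 0.15, adjusted p = 0.0143, in both tests); its cultured groups overlapped, with KO replicate 2 at 7930 above control replicate 1 at 7698. Birc5, the survivin gene, had changes of -0.19 and 0.99 (difference -1.18, SE 0.19, adjusted p = 0.0402, in both tests), and the kinetochore gene Cenpm of -1.02 and 0.56 (difference -1.59, SE 0.23, adjusted p = 0.0140, in both tests). The call for Birc5 was lost without fresh KO replicate 2 (adjusted p = 0.0688).

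The cytokinesis genes that act with RhoA at the cleavage furrow were among them. Racgap1, the GTPase-activating subunit of centralspindlin, read 269 and 222 in fresh control, 341 and 390 in fresh KO, 2812, 2041 and 2511 in cultured control and 1743, 1729 and 1598 in cultured KO. Again KO was the higher in fresh cells and the lower in culture without overlap (difference -1.10, SE 0.20, adjusted p = 0.0299, single fit 0.0642; 0.0545 without fresh KO replicate 2). Anln, which encodes anillin, a scaffold that binds RhoA, actin and septins, had changes of -0.29 in culture and 0.45 in fresh cells (difference -0.74, SE 0.16, adjusted p = 0.0491, single fit 0.0964), and the call was lost without 8 of the 10 arrays. Ect2, the exchange factor gene, had a difference of -0.56 (SE 0.15, adjusted p = 0.0942) and Cit, which encodes citron kinase, one of -0.98 (SE 0.26, adjusted p = 0.0889), neither past the threshold. The formin gene Diaph3 had changes of -0.44 and 0.16 and a difference of -0.61 (SE 0.21, adjusted p = 0.203).

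DNA replication genes had smaller differences of the same sign. All 40 tested members had a negative difference, against 55.9% of all genes, and 27 had an unadjusted p under 0.05 (67.5%, against 12.2%). Dut and Rfc4 were called, 5.0% of the list against 0.954% of all genes. The median change was -0.28 in culture and 0.27 in fresh cells, and the median difference -0.52; without fresh KO replicate 2 the fresh median was 0.17, the difference -0.41, and 0 were called, with 25 at an unadjusted p under 0.05. The number called was 21 without fresh KO replicate 1. Dut, which encodes the dUTPase that keeps uracil out of DNA, read 822 and 688 in fresh control, 867 and 1012 in fresh KO, 3585, 3514 and 4070 in cultured control and 2099, 2502 and 2718 in cultured KO, without overlap in either condition (difference -0.93, SE 0.18, adjusted p = 0.0394). Rfc4, a clamp loader subunit gene, had a difference of -0.75 (SE 0.13, adjusted p = 0.0438), and without fresh KO replicate 2 the adjusted p was 0.0716 for Dut and 0.0925 for Rfc4. Outside the lists, the histone chaperone gene Asf1b and Pclaf, whose product binds the sliding clamp at replication forks, had differences of -1.20 (SE 0.17, adjusted p = 0.0130) and -1.54 (SE 0.23, adjusted p = 0.0307), both in both tests. Of the 94 called genes with a lower culture effect 27 belonged to these 2 lists.

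**Figure D2:**
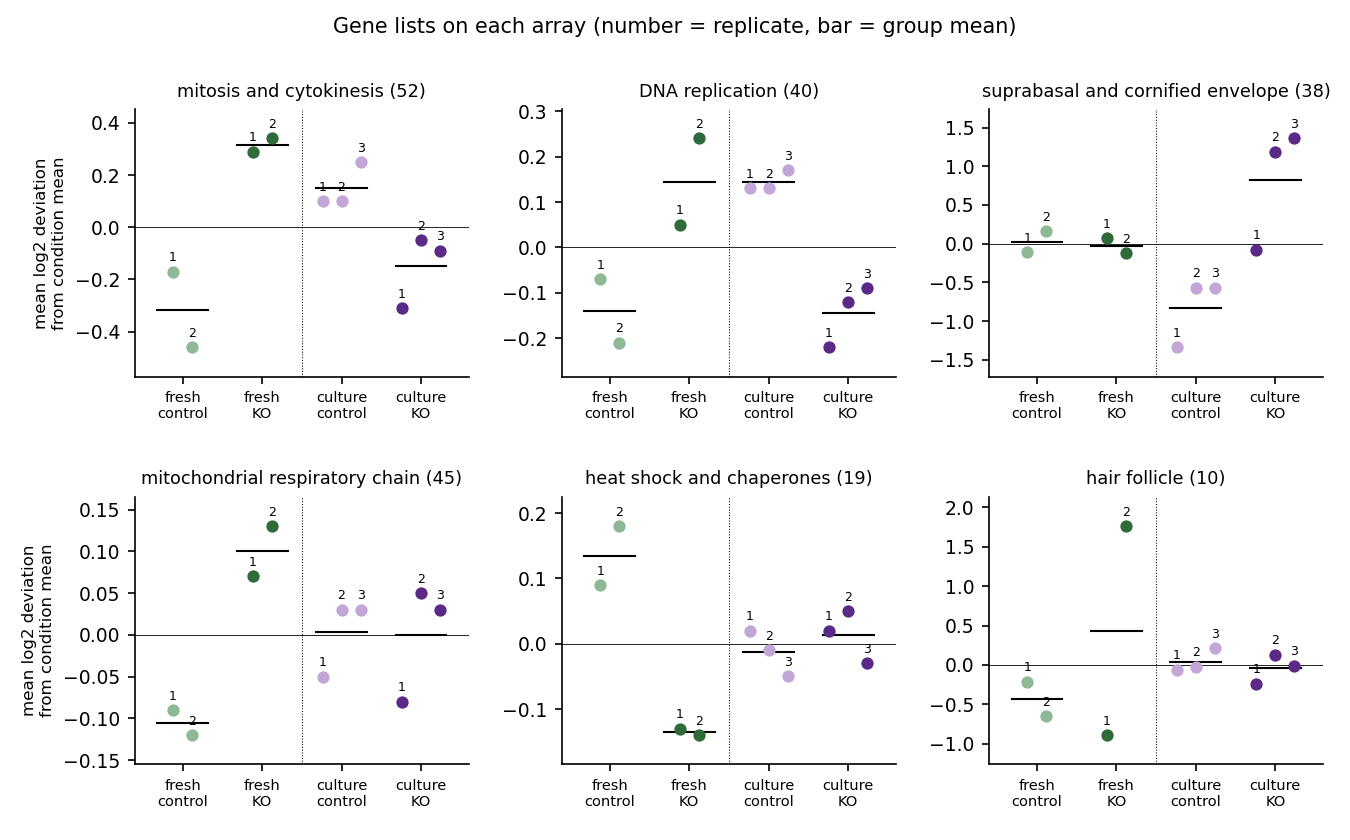
Mean log2 deviation of 6 gene lists from their mean over the arrays of the same condition, for each array; points are arrays, digits are replicate numbers, bars are group means, and the number of tested genes is in brackets. For mitosis the fresh KO arrays lie at 0.29 and 0.34 above fresh controls at -0.17 and -0.46, the cultured KO arrays at -0.31 to -0.05 lie below cultured controls at 0.10 to 0.25, and fresh KO replicate 2 lies at 1.76 for hair follicle genes.

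Cornified envelope and suprabasal genes differed in the other direction, with the larger changes in the cultured cells. Of 38 tested members 30 had a positive difference (78.9%, against 44.1% of all genes). Of the 38, 7 were called, all positive (18.4%, against 0.497% of all genes), and 3 passed in the single fit. At an unadjusted p under 0.05 there were 24 positive (63.2%, against 8.17% of all genes) and 3 negative (7.89%, against 12.2%). The median change was 1.13 in culture and -0.05 in fresh cells, where 15 members were higher and 23 lower in KO. In 4 members KO was higher in both conditions without overlap, as in 312 of 9851 genes (3.17%), and in 4 KO was higher in culture and lower in fresh cells, as in 225 genes (2.28%). The median difference was 1.38, and from 1.12 to 1.74 with 1 array left out; the number called was 0 without cultured control replicate 3, and 14 without cultured KO replicate 1, the KO array nearest to the controls.

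Envelope precursor genes differed among themselves in the tissue. Lor, which encodes loricrin, read 7810 and 11965 in fresh control and 6056 and 3540 in fresh KO, while cultured control gave 147, 262 and 250 and cultured KO 688, 1922 and 1766. It was lower in KO in fresh cells and higher in KO in culture, without overlap in either. The changes were 2.64 in culture and -1.06 in fresh cells, a difference of 3.70 (SE 0.54, adjusted p = 0.0173, single fit 0.0545). Ivl, which encodes involucrin, read 2376 and 2177 in fresh control and 3024 and 2682 in fresh KO, so it was higher in KO there too, by 0.32, and by 2.07 in culture (difference 1.74, SE 0.23, adjusted p = 0.0196, in both tests). Lce1m, of the late cornified envelope cluster, read 1111 and 2379 in fresh control and 444 and 210 in fresh KO, and 11.8 to 43.4 on all cultured arrays, close to the floor. Its difference of 3.24 (SE 0.65, adjusted p = 0.0394) holds a change of -2.41 in fresh cells, and the call was lost without fresh KO replicate 2 (adjusted p = 0.0627). Sprr1b, a small proline-rich envelope protein gene induced in stressed epidermis, had changes of 0.80 in culture and 2.59 in fresh cells, a difference of -1.78 (SE 0.47, adjusted p = 0.0866) that did not pass.

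The promoters of Lor and Ivl are shown with AP-1 elements (letters TGANTCA, either strand, which neither motif above contains) in capitals, as 2 called members of the list with a promoter in the table; other letters, CHR letters included, are left in lower case. They lie at chr3:92083093-92083392 and chr3:92573686-92573985, both on the - strand. Lor and Ivl too were taken for a small p of the difference.
Lor: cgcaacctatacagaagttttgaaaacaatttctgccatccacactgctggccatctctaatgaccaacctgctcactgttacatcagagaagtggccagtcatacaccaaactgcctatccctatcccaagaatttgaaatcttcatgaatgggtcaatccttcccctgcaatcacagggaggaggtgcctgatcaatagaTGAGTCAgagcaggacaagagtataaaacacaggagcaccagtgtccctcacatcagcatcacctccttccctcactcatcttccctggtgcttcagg
Ivl: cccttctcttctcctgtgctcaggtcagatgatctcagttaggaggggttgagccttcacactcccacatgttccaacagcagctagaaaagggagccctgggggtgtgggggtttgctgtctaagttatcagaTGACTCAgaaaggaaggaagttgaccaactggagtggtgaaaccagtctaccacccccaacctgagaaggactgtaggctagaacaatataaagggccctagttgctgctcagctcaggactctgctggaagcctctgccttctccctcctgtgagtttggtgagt

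The element begins at -48 in the Lor window and at -116 in the Ivl window. Of 29 promoters of the list 10 (34.5%) held 1 or more such elements, against 381 of 8076 tested genes (4.7%) and 0 of 43 mitosis promoters.

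Desmosomal cadherin genes of the outer layers were also called with the culture effect higher. Dsc1, which encodes desmocollin 1, read 4210 and 5207 in fresh control and 4376 and 4336 in fresh KO, and 214, 261 and 198 in cultured control against 965, 1588 and 1325 in cultured KO. The fresh groups overlapped and the cultured ones lay far apart (difference 2.61, SE 0.24, adjusted p = 0.00687, in both tests). Dsg1b had changes of 1.61 in culture and 0.08 in fresh cells (difference 1.53, SE 0.22, adjusted p = 0.0177, in both tests), and Dsg1a of 0.87 and -0.04 (difference 0.91, SE 0.16, adjusted p = 0.0355, single fit 0.080); these desmoglein 1 genes are near-identical copies, and the signal of one may come from the other. With Dsc1 they were the 3 called of 12 desmosome genes (25%, against 0.497% of all genes). Cdsn, the gene of corneodesmosin, which holds the outermost cells together, read 2511 and 3198 in fresh control and 2390 and 1092 in fresh KO, and 116, 310 and 259 in cultured control against 760, 3568 and 2523 in cultured KO. It was lower in fresh KO and higher in cultured KO without overlap (difference 3.98, SE 0.75, adjusted p = 0.0420, single fit 0.107; 0.0869 without fresh KO replicate 2). The tight junction gene Ocln was lower in KO in both, with changes of -1.91 in culture and -0.39 in fresh cells (difference -1.52, SE 0.26, adjusted p = 0.0216, single fit 0.0705). It was the 1 called of 14 genes in its list (7.14%, against 0.954% of all genes). Of 14 adherens junction genes 1 was called (7.14%, against 0.497% of all genes). This was Cdh13, which encodes T-cadherin (1.10 and -0.01, difference 1.11, SE 0.17, adjusted p = 0.0190, single fit 0.0545).

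**Figure D3:**
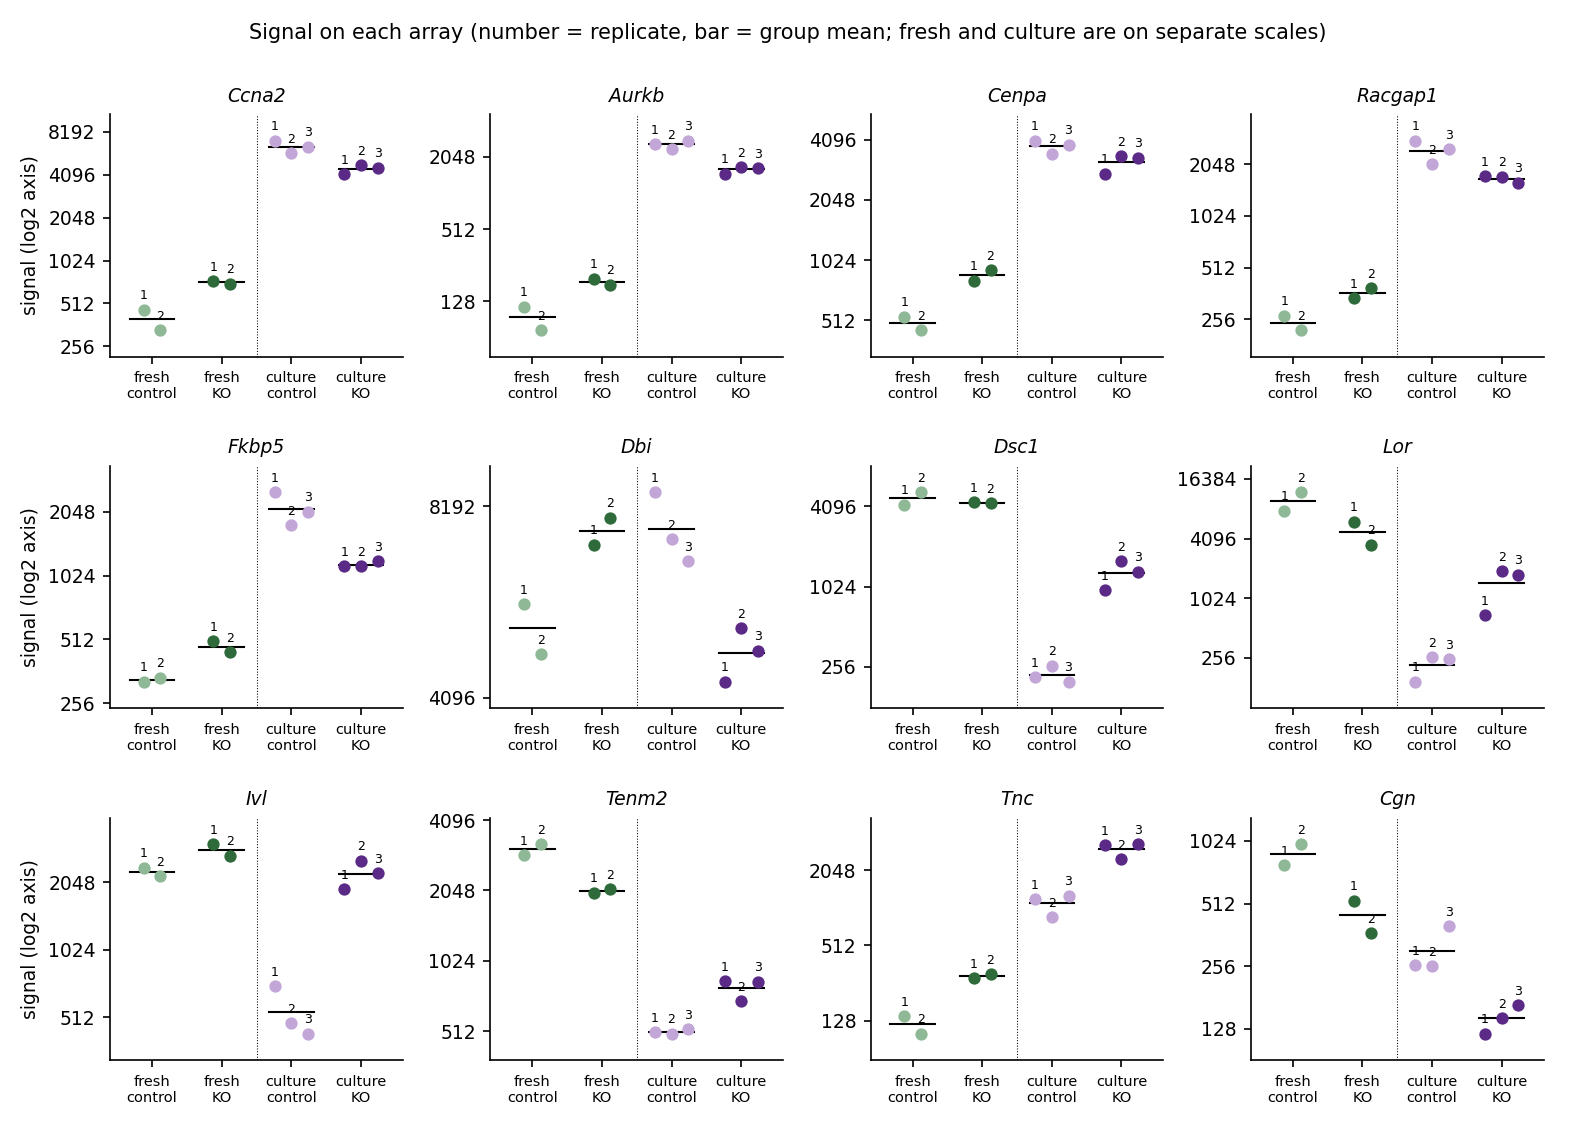
Signal of 12 genes on each array, on log2 axes; points are arrays, digits are replicate numbers and bars are group means, with fresh and cultured arrays on separate scales that allow no comparison of levels. Ccna2, Aurkb, Cenpa, Racgap1, Fkbp5 and Dbi were higher in KO in fresh cells and lower in culture, Lor and Tenm2 the reverse, Dsc1 and Ivl had the larger change in culture, and Tnc was higher and Cgn lower in KO in both.

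Basal keratinocyte genes had no common direction, with a median difference of 0.09 over 20 members. Of these 1 was called with the culture effect higher (5%, against 0.497% of all genes) and 1 with it lower (5%, against 0.954%). Dst, the dystonin gene, was called higher (0.35 in culture and -0.31 in fresh cells, difference 0.66, SE 0.13, adjusted p = 0.0394; 0.0513 without fresh KO replicate 2), though 2 of its 4 tested probe sets had a positive and 2 a negative difference. Wnt4, a Wnt ligand gene, was called lower (-0.74 and 0.30, difference -1.04, SE 0.17, adjusted p = 0.0299). Wnt4 read 12206, 10139 and 11950 in cultured control and 5555, 7145 and 7999 in cultured KO, and 2519 and 2259 in fresh control against 2953 and 2907 in fresh KO. Neither condition's groups overlapped. The hemidesmosome integrin gene Itgb4 (difference 0.62, adjusted p = 0.0556) and the laminin gene Lamb3 (0.59, adjusted p = 0.0576) came close without passing.

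Genes of non-muscle myosin II, which drives contraction, and of its phosphatase had a median difference of -0.06 over 9 members. The combined test called 0 of them, with 0 at an unadjusted p under 0.05. Rock1, the RhoA-activated kinase gene, had a difference of 0.26 (SE 0.13, 95% interval -0.04 to 0.55). Ppp1r12a, the myosin phosphatase targeting subunit gene, had one of 0.22 (interval -0.03 to 0.47). Arhgap44, a Rac and Cdc42 GAP gene outside the lists, read 196, 264 and 279 in cultured control and 62.0, 62.3 and 36.4 in cultured KO, and 913 and 1045 in fresh control against 660 and 624 in fresh KO. It was lower in KO in both conditions, and by more in culture (-2.23 and -0.61, difference -1.62, SE 0.28, adjusted p = 0.0402, single fit 0.0937).

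Of 35 actin dynamics genes 1 was called with the culture effect higher (2.86%, against 0.497% of all genes) and 2 with it lower (5.71%, against 0.954%), and the median difference was 0.05. Cotl1, which encodes the actin filament binding protein coactosin-like 1, read 1584, 1111 and 1327 in cultured control and 5258, 8075 and 10175 in cultured KO, while fresh control read 1220 and 1238 and fresh KO 1296 and 1666. The fresh groups did not overlap either, with a change of 0.26 there against 2.51 in culture (difference 2.25, SE 0.30, adjusted p = 0.0151, in both tests). Fscn1, which encodes the filament bundler fascin, differed through the fresh cells and read 255 and 223 in fresh control and 664 and 1161 in fresh KO, and 61883 to 66909 on the 6 cultured arrays. Those cultured values lie among the highest of the array, the change in culture was -0.02, and the difference was -1.90 (SE 0.27, adjusted p = 0.0450, in both tests). Tpm2, a tropomyosin gene, had changes of -0.10 in culture and 0.76 in fresh cells (difference -0.85, SE 0.14, adjusted p = 0.0201, single fit 0.0523).

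Of 27 targets of SRF and MRTF, factors that respond to actin assembly, 3 were called, all with the culture effect lower (11.1%, against 0.954% of all genes), and the median difference was -0.09. Besides Tpm2 they were Fhl2 and Egr2. Fhl2, a LIM protein gene, read 76.3 and 76.0 in fresh control against 170 and 205 in fresh KO, and 4096, 3034 and 3406 in cultured control against 2804, 3336 and 3513 in cultured KO. It was higher in fresh KO, while the cultured groups overlapped (difference -1.42, SE 0.21, adjusted p = 0.0140, in both tests). Egr2, an immediate early transcription factor gene, had changes of -2.42 in culture, where KO arrays at 16.1 to 19.9 were near the floor, and of -0.39 in fresh cells (difference -2.03, SE 0.32, adjusted p = 0.0431). YAP and TEAD targets, which respond to tension, had negative medians in both conditions, -0.22 in culture and -0.35 in fresh cells, and 7 of 25 were lower in KO in both without overlap, as in 394 of all genes (4%). The 1 called was Birc5, also a mitosis gene, with the culture effect lower (4% of the list, against 0.954% of all genes). At an unadjusted p under 0.05, 6 had a positive difference (24%, against 8.17% of all genes). The median difference of that list was 0.05, but -0.13 without fresh KO replicate 2 and 0.22 when all 10 arrays were quantile normalized together. Amotl2, of the angiomotin family, had changes of 0.14 in culture and -0.79 in fresh cells, and its difference of 0.93 (SE 0.20, adjusted p = 0.0565) did not pass.

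**Figure D4:**
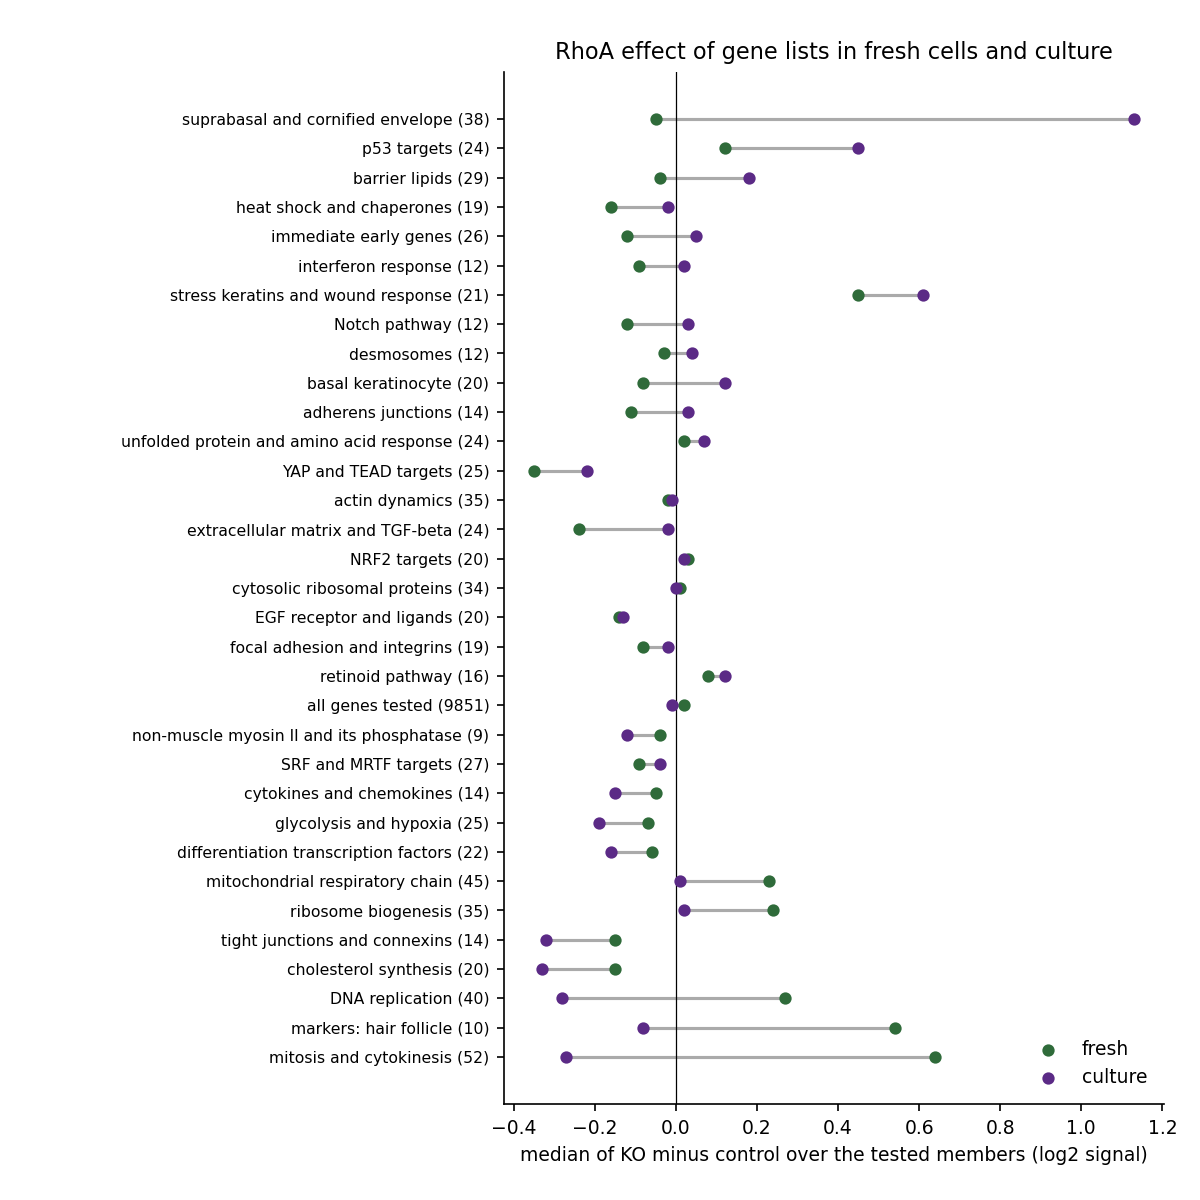
Median change between KO and control over the tested members of the gene lists shown, each with at least 9 of them, in fresh cells (green) and in culture (purple), on the log2 signal scale; the number of members is in brackets and lists are ordered by their median difference. Suprabasal genes (median difference 1.38) stand at the top and mitosis genes (-0.95) at the bottom, and over all 9851 genes the medians were -0.01 in culture and 0.02 in fresh cells.

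Metabolic lists gave small shifts. Of 45 respiratory chain genes 43 had a negative difference (95.6%, against 55.9% of all genes). Their list had a median change of 0.01 in culture and 0.23 in fresh cells (median difference -0.21, and -0.17 without fresh KO replicate 2). None was called by the combined test, and 17 had an unadjusted p under 0.05, all negative (37.8%, against 12.2% of all genes). Ribosome biogenesis genes had medians of 0.02 and 0.24, and their median difference of -0.22 was -0.09 without fresh KO replicate 2. Cytosolic ribosomal protein genes, 34 of them, had a median difference of -0.01. Cholesterol synthesis genes had negative medians in both conditions, -0.33 in culture and -0.15 in fresh cells. Of 20 such genes 18 had a negative difference (90%, against 55.9% of all genes). At an unadjusted p under 0.05 there were 7 of these (35.0%, against 12.2%), and the combined test called 0. Of 25 glycolysis and hypoxia genes 1 was called (4%, against 0.954% of all genes), Slc2a3, which encodes a glucose transporter. It read 200, 61.2 and 57.7 in cultured control and 7.01 to 7.72 in cultured KO, at the floor, so that its difference has no exact size, and 86.3 and 56.5 in fresh control against 76.8 and 67.8 in fresh KO (difference -3.64, SE 0.54, adjusted p = 0.0214, single fit 0.0545).

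Among barrier lipid genes 3 of 29 had a called positive difference (10.3%, against 0.497% of all genes), 2 of them above the floor in culture. Plin2, which coats lipid droplets, read 4586, 5832 and 5241 in cultured control and 8993, 10762 and 11038 in cultured KO, and 1630 and 1570 in fresh control against 1495 and 1585 in fresh KO. The change was thus 0.98 in culture and -0.06 in fresh cells, where the groups overlapped (difference 1.03, SE 0.15, adjusted p = 0.0147, in both tests). Cyp4f39, a fatty acid hydroxylase gene of the ceramide pathway, had changes of 1.33 and -0.18 (difference 1.51, SE 0.24, adjusted p = 0.0216). Scd3, a stearoyl-CoA desaturase gene of sebocytes, differed through the tissue: it read 289 and 231 in fresh control and 75.6 and 58.5 in fresh KO, and 6.90 to 11.4 on all cultured arrays, at the floor, where no culture effect can be measured (difference 1.71, SE 0.24, adjusted p = 0.0149, in both tests). The 12 sebaceous genes on the array summed to 18162 and 17590 in fresh control and 15712 and 14899 in fresh KO, and the part of sebocytes in the value for Scd3 was not tested.

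Stress lists divided. Of 19 heat shock and chaperone genes 16 had a positive difference (84.2%, against 44.1% of all genes). The median change of the list was -0.02 in culture and -0.16 in fresh cells. On the positive side 9 had an unadjusted p under 0.05 (47.4%, against 8.17% of all genes) and 1 was called (5.26%, against 0.497%). Dnajb1, the cochaperone of Hsp70, was the 1 called: it read 17151 and 17605 in fresh control and 13367 and 12164 in fresh KO, and 3878 to 4400 on all cultured arrays (difference 0.48, SE 0.09, adjusted p = 0.0394, single fit 0.0954; 0.0734 without fresh KO replicate 2). Immediate early genes had 21 of 26 positive differences (80.8%) and p53 targets 18 of 24 (75%), against 44.1% of all genes. The median difference of immediate early genes was 0.21, from 0.11 to 0.44 with 1 array left out. That of p53 targets was 0.36, but 0.05 without fresh control replicate 1, 0.15 without fresh KO replicate 2 and 0.10 when all arrays were quantile normalized together. The 1 called immediate early gene was Egr2, given above (3.85% of the list, against 0.954% of all genes). The combined test called 0 p53 targets, with 6 at an unadjusted p under 0.05, all positive (25%, against 8.17% of all genes). In the unfolded protein and amino acid response 9 of 24 genes had a positive difference at an unadjusted p under 0.05 (37.5%, against 8.17% of all genes). On the negative side there were 6 (25%, against 12.2%). The combined test called 2 of the 24, both with the culture effect lower (8.33%, against 0.954% of all genes). They were Atf5, a stress-induced transcription factor gene, with changes of -0.33 in culture and 0.58 in fresh cells (difference -0.91, SE 0.15, adjusted p = 0.0201, single fit 0.0522), and Psat1, a serine synthesis enzyme gene, with changes of -0.25 and 0.51 (difference -0.76, SE 0.14, adjusted p = 0.0326, single fit 0.0625; 0.0598 without fresh KO replicate 2).

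Stress keratin and wound genes had positive medians in both conditions, 0.61 in culture and 0.45 in fresh cells over 21 members. The median difference was 0.16, and it turned to -0.49 when all 10 arrays were quantile normalized together and to -0.17 without fresh KO replicate 1. The 1 called (4.76% of the list, against 0.497% of all genes) was Csta1, a cystatin gene of the envelope (2.17 in culture and -0.01 in fresh cells, difference 2.18, SE 0.30, adjusted p = 0.0130, in both tests). Stfa3, of the same inhibitor family, had the larger change in fresh cells, 3.54 against 1.15 in culture (difference -2.39, SE 0.59, adjusted p = 0.0890), and Serpinb3a, a serine protease inhibitor gene, 2.04 against -0.10 at the culture floor (difference -2.14, SE 0.33, adjusted p = 0.0525; 0.0153 without fresh KO replicate 2).

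Of the 12 genes with the largest positive differences, Lce1m had the larger change in fresh cells and the others had it in culture. Sh3kbp1 encodes an adaptor of receptor endocytosis that binds Cbl. It was the 1 called of 20 genes of the EGF receptor list (5%, against 0.497% of all genes). It read 115, 104 and 155 in cultured control and 773, 963 and 1255 in cultured KO, against 447 and 538 in fresh control and 447 and 332 in fresh KO. The cultured groups lay far apart and KO was not above control in fresh cells (2.99 and -0.35, difference 3.34, SE 0.30, adjusted p = 0.00323, in both tests). All 3 of its tested probe sets were called. Ctla2a, a cathepsin inhibitor gene, read 11.7 to 14.1 in cultured control, near the floor, and 50.1 to 58.3 in cultured KO, and 1350 and 1023 against 1332 and 1242 in fresh cells (difference 1.97, SE 0.19, adjusted p = 0.00687, in both tests). Teddm3 had changes of 2.62 and -0.15 (difference 2.77, SE 0.32, adjusted p = 0.0126, in both tests), and Gsdmc2, a gasdermin gene that read 5.96 to 10.2 in cultured control, of 3.75 and 0.15 (difference 3.6, SE 0.56, adjusted p = 0.0394, in both tests). Nlrp10, an NLR family gene, had changes of 1.85 and -0.92 (difference 2.77, SE 0.49, adjusted p = 0.0420, single fit 0.0964; 0.0696 without fresh KO replicate 2).

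Of the genes with a far lower culture effect, Peg3, a paternally expressed zinc finger gene, read 390, 426 and 594 in cultured control and 68.1, 36.9 and 35.1 in cultured KO. The fresh control arrays gave 164 and 138 and the fresh KO arrays 136 and 126, a change of -0.20 against -3.38 in culture (difference -3.17, SE 0.34, adjusted p = 0.0126, in both tests). Mab21l4 read 61.2, 37.7 and 45.2 in cultured control and 5.48 to 8.92 in cultured KO, at the floor, and was slightly higher in fresh KO, at 437 and 469 against 355 and 427 (difference -2.87, SE 0.29, adjusted p = 0.00865, in both tests). Tgfbr3, which encodes the TGF-beta coreceptor betaglycan, was lower in KO in both, at 1119, 822 and 1019 against 211, 285 and 258 in culture and at 1754 and 1749 against 1396 and 1351 in fresh cells (difference -1.62, SE 0.19, adjusted p = 0.0130, in both tests). Ramp3, a receptor activity modifying protein gene, had changes of -2.02 and -0.00 (difference -2.01, SE 0.30, adjusted p = 0.0201, single fit 0.0545), and Chdh, a choline dehydrogenase gene, of -2.01 and -0.24 (difference -1.77, SE 0.32, adjusted p = 0.0450, single fit 0.0995).

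Other genes moved in opposite directions in both conditions without overlap. Tenm2, which encodes a teneurin adhesion protein, read 506, 500 and 522 in cultured control and 839, 689 and 833 in cultured KO, but 2901 and 3233 in fresh control against 2006 and 2076 in fresh KO. It was higher in cultured KO and lower in fresh KO by similar amounts, 0.62 and -0.59 (difference 1.21, SE 0.14, adjusted p = 0.00865, in both tests). Laptm4b, a lysosomal membrane protein gene, had changes of 0.63 and -0.68 (difference 1.31, SE 0.18, adjusted p = 0.0201), Ndel1, a dynein regulator gene, of 0.36 and -0.31 (difference 0.67, SE 0.09, adjusted p = 0.0130), and Btbd11 of 0.27 and -0.37 (difference 0.64, SE 0.11, adjusted p = 0.0201), each in both tests. The mean over both probe sets of Ndel1 gave a difference of -0.16, so its probe sets disagree. Shisa5, a p53-induced gene of the endoplasmic reticulum, had changes of 0.46 and -0.11 (difference 0.56, SE 0.09, adjusted p = 0.0216, single fit 0.0545; 0.0523 without fresh KO replicate 2). Csf2ra, the GM-CSF receptor alpha chain gene, read 125 and 123 in fresh control and 87.8 and 70.5 in fresh KO, and 15.3 to 17.4 in cultured control against 23.2 to 30.9 in cultured KO, all low (difference 1.37, SE 0.21, adjusted p = 0.0190, in both tests).

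In the other orientation, Fkbp5, a glucocorticoid-induced cochaperone gene, read 323 and 338 in fresh control and 503 and 445 in fresh KO, and 2530, 1768 and 2046 in cultured control against 1136, 1135 and 1195 in cultured KO. It was higher in fresh KO and lower in cultured KO (-0.86 in culture and 0.52 in fresh cells, difference -1.38, SE 0.18, adjusted p = 0.0126, in both tests). Dbi, which encodes the acyl-CoA binding protein, read 5748 and 4796 against 7130 and 7852 in fresh cells and 8611, 7262 and 6713 against 4340, 5270 and 4855 in culture (difference -1.15, SE 0.16, adjusted p = 0.0130, in both tests). Its control and KO arrays changed order between the conditions. Oxct1, an enzyme gene of ketone body use, had changes of -0.73 in culture and 0.30 in fresh cells (difference -1.03, SE 0.13, adjusted p = 0.0130), and Prdx4, a peroxiredoxin gene of the endoplasmic reticulum, of -0.73 and 0.39 (difference -1.12, SE 0.15, adjusted p = 0.0130), both in both tests. Tmpo, a lamina-associated protein gene, had changes of -0.65 and 0.18 (difference -0.82, SE 0.13, adjusted p = 0.0198, single fit 0.0537).

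**Figure D5:**
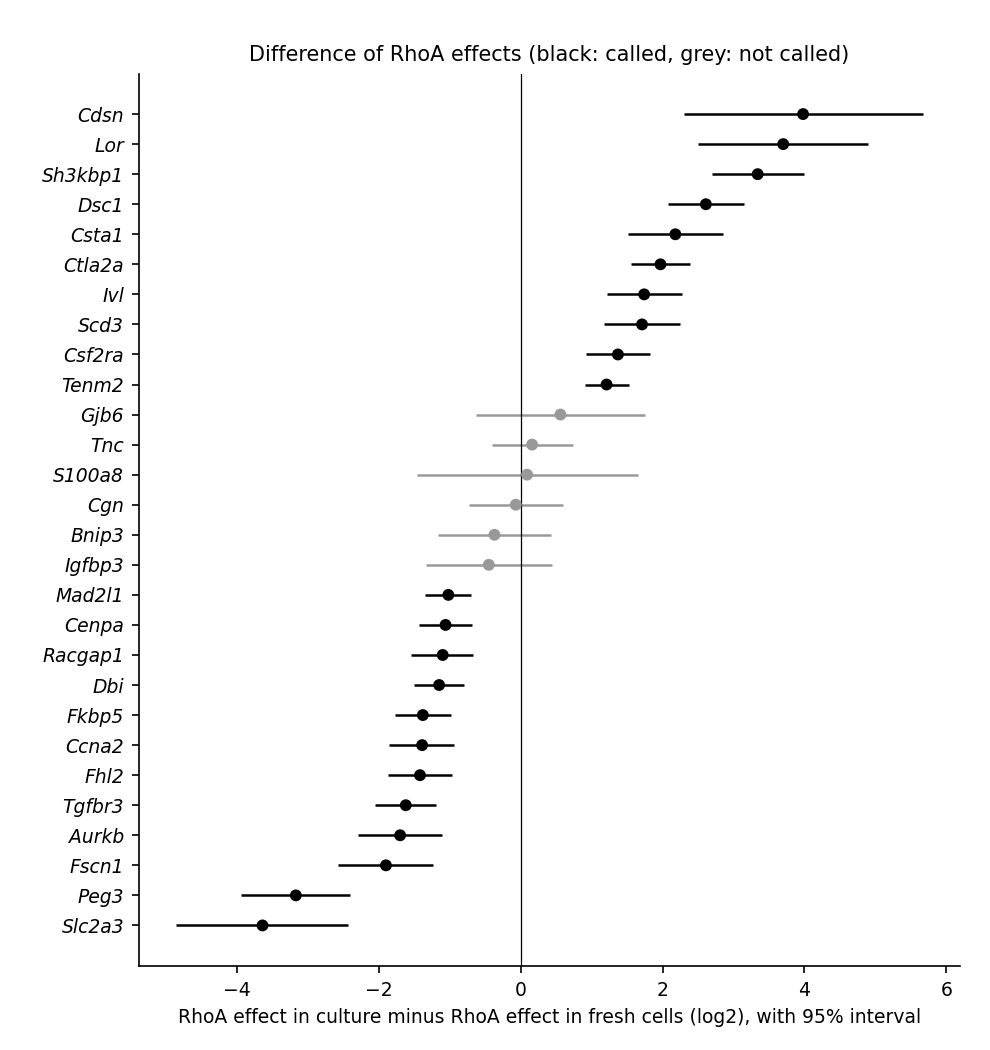
RhoA effect in culture minus RhoA effect in fresh cells for 28 genes, on the log2 scale, with 95% intervals from the combined test; black marks differences that were called and grey those that were not. Cdsn (3.98) and Slc2a3 (-3.64, not an exact size since cultured KO is at the floor) stand at the ends, and the intervals of Gjb6, Tnc, S100a8, Cgn, Bnip3 and Igfbp3 span 0.

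Other genes moved the same way in both conditions. With groups that did not overlap in either and a change of at least 0.58 in both, 40 probe sets were higher in KO (0.213%) and 52 lower (0.277%). At that size 30 (0.160%) were higher in culture and lower in fresh cells and 15 (0.0799%) the reverse. Tnc, which encodes the matrix protein tenascin C, read 140 and 101 in fresh control and 280 and 302 in fresh KO, and 1199, 863 and 1275 in cultured control against 3251, 2505 and 3307 in cultured KO. The changes were 1.29 and 1.45, a difference of 0.16 with a 95% interval of -0.41 to 0.73. S100a8, a calprotectin subunit gene, had changes of 1.84 in culture and 1.74 in fresh cells, but its fresh KO arrays read 93.8 and 379, and the interval of the difference ran from -1.46 to 1.65. Gjb6, the connexin 30 gene, had changes of 2.16 and 1.60 (interval -0.63 to 1.75), Klk6, a kallikrein gene, of 1.62 and 1.36 (interval -0.87 to 1.38) and Sulf2, a heparan sulfatase gene, of 1.82 and 1.34 (interval -0.88 to 1.82).

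Of those lower in both, Cgn, which encodes cingulin, a tight junction plaque protein that binds RhoA regulators, read 784 and 989 in fresh control and 529 and 369 in fresh KO, and 258, 255 and 399 in cultured control against 121, 144 and 166 in cultured KO. The changes were -1.06 in culture and -0.99 in fresh cells, a difference of -0.07 (interval -0.73 to 0.60). Igfbp3, a binding protein of insulin-like growth factors and a YAP target, read 7327, 5524 and 8057 in cultured control and 2440, 1048 and 1632 in cultured KO, and 2929 and 4796 against 1069 and 1337 in fresh cells (-2.10 and -1.65, interval of the difference -1.33 to 0.44). Bnip3, a mitophagy receptor gene induced by low oxygen, had changes of -1.36 and -0.99 (interval -1.16 to 0.42), and Sema3e, a semaphorin gene, of -1.60 and -1.18 (interval -1.44 to 0.61). These intervals are wide, so like effects are not shown for these genes.

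Markers of other cells differed between conditions in what they could show. In culture Cd207 and Cd74, carried by Langerhans cells, read 3.39 to 4.64, Ptprc, the pan-leukocyte gene, 4.14 to 4.21, and the T cell genes Cd3d and Cd3g 4.49 to 5.01, all at the floor. In fresh cells they were detected on every array, with Cd74 at 4420 and 3334 in control and at 2654 and 1131 in KO. Of the 16 Langerhans and myeloid genes 5 could be tested. Of these 1 was called with the culture effect higher (20%, against 0.497% of all genes) and 1 with it lower (20%, against 0.954%). The first was Cd68, a lysosomal gene of macrophages, at 24.2 to 29.6 in cultured control and 60.3 to 85.8 in cultured KO. In fresh cells Cd68 read 90.2 and 83.0 in control against 73.6 and 37.0 in KO (difference 2.03, SE 0.37, adjusted p = 0.0469, single fit 0.0625). The other was Epcam, an adhesion gene read at 2378 to 5119 on the cultured arrays (-0.77 and 0.11, difference -0.88, SE 0.18, adjusted p = 0.0438, single fit 0.116). Fibroblast collagen genes Col1a1 and Col3a1 were at 5.44 to 7.07 on the cultured arrays. Other genes of that list were higher in cultured KO: S100a4 read 531, 673 and 674 in cultured control against 874, 1140 and 1318. The 15 fibroblast genes summed to 748, 850 and 841 in cultured control and to 1258, 1563 and 1811 in cultured KO. On every cultured array S100a4 was the largest part of that sum. Col1a2 at 4.74 to 4.93 and Dcn at 3.96 to 4.01 stayed at the floor on the cultured arrays of both genotypes. Of the 4 tested, 3 had a positive and 1 a negative difference (median 1.03), and the combined test called 0. The matrix protease gene Mmp14 was called with changes of 0.71 in culture and -0.27 in fresh cells (difference 0.98, SE 0.20, adjusted p = 0.0420, single fit 0.105; 0.0734 without fresh KO replicate 2). The melanocyte genes Tyrp1, Dct, Pmel and Mlana were highest on replicate 2 of fresh KO and, in culture, on replicate 3 of cultured KO. Mitf was not: it read 474 on fresh KO replicate 2 against 550 to 699 on the other fresh arrays. Its highest cultured value was 222, on control replicate 1. The median difference of the 5 melanocyte genes tested was -0.66, and 0.48 without fresh KO replicate 2. That of 10 hair follicle genes was -0.79, and 0.28 without that array. The part of these cells in the differences above was not tested beyond the values given without that array.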

How the data were processed

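The deposited intensity values are linear MAS5 signals that the authors computed, per the submitters' processing notes; the version is not given in the sources used here. RNA was labelled with a 3' expression kit, per the labels' protocols. Values were taken to log2 with no further scaling. Of 45037 probe sets 34945 had 1 gene symbol, 932 several and 9160 none in the platform annotation. KO and control were compared within each condition with limma 3.58.1 (lmFit and eBayes with a mean-variance trend, R 4.3.3); both fits were combined into the difference with Welch-Satterthwaite degrees of freedom, and p-values were adjusted over all tested probe sets by the Benjamini-Hochberg method. Each gene is represented by 1 probe set. The test was tried on simulated data.

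The genes named were the 12 largest called differences in each direction, up to 8 genes of each pattern of groups that do not overlap, and up to 4 members of each list with the smallest p. The members and lists were chosen with earlier results of these data known. Of the 42 lists 1042 of 1129 entries matched a probe set. Alternatives covered scaling, filters, the fit, the replicate number and each array left out. Some lists are not reported here.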

Additional observations from a re-analysis of the deposited data

Results flagged for a closer look

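The test of the difference between the culture and the fresh effect (combined test of both limma fits, adjusted p under 0.05) singled out 62 of the genes described, all of them with their values above. Values are log2 differences, culture minus fresh. The culture effect was the higher for Cdsn (3.98), Lor (3.70), Gsdmc2 (3.6), Sh3kbp1 (3.34), Lce1m (3.24), Nlrp10 (2.77), Teddm3 (2.77), Dsc1 (2.61), Cotl1 (2.25) and Csta1 (2.18). It was also higher for Cd68 (2.03), Ctla2a (1.97), Ivl (1.74), Scd3 (1.71), Dsg1b (1.53), Cyp4f39 (1.51), Csf2ra (1.37), Laptm4b (1.31), Tenm2 (1.21) and Cdh13 (1.11). It was also higher for Plin2 (1.03), Mmp14 (0.98), Dsg1a (0.91), Ndel1 (0.67), Dst (0.66), Btbd11 (0.64), Shisa5 (0.56) and Dnajb1 (0.48). It was the lower for Slc2a3 (-3.64), Peg3 (-3.17), Mab21l4 (-2.87), Egr2 (-2.03), Ramp3 (-2.01), Fscn1 (-1.90), Chdh (-1.77), Aurkb (-1.70), Arhgap44 (-1.62) and Tgfbr3 (-1.62). Lower culture effects were also found for Cenpm (-1.59), Pclaf (-1.54), Ocln (-1.52), Fhl2 (-1.42), Ccna2 (-1.39), Fkbp5 (-1.38), Asf1b (-1.20), Birc5 (-1.18), Cdc25c (-1.16) and Dbi (-1.15). Further negative differences were those of Prdx4 (-1.12), Racgap1 (-1.10), Cenpa (-1.06), Wnt4 (-1.04), Oxct1 (-1.03), Mad2l1 (-1.02), Dut (-0.93), Atf5 (-0.91), Epcam (-0.88) and Tpm2 (-0.85). The smallest in size were those of Tmpo (-0.82), Psat1 (-0.76), Rfc4 (-0.75) and Anln (-0.74).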

How the results depend on the processing

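The number of probe sets called for the difference was 221. It was 78 in a single fit over all 10 arrays, 63 after quantile normalization of all arrays together, 643 with array weights, and, as alternatives chosen after seeing the data, 115 with fresh effects scaled to the spread of culture effects and 0 with the degrees of freedom of the smaller fit. Leaving out 1 array gave 2 to 1507. The count for culture, 66, was 572 in the single fit, 2 with no filter, 743 with array weights and 0 to 74 with 1 array left out. The count for fresh cells, 0 by limma with 2581 at an unadjusted p under 0.05, was 6 in the single fit and 0 to 830 with 1 array left out, 830 without fresh KO replicate 1 and 4 without fresh KO replicate 2. With the replicate number as a block 490 were called for the difference; same-numbered samples deviated together at 0.318, 0.0812 and 0.268 in culture and at 0.0033 in fresh cells, not above 0.1 in every pair, so the numbers were not used as pairs. Other filters, scalings and a fit without the trend gave 151 to 322. Of the comparisons of named genes 3525 kept direction and side of the threshold, 206 gained a call, 425 lost one and 11 changed sign. Those 11 were Atp5a1 (0.03), Ndel1 (-0.16) and Ppp1r14b (0.15) when a gene's probe sets were averaged, and, with 1 array left out, Cd3e (-0.15 to 0.11, turned by fresh control replicate 2 and fresh KO replicate 2), Mylpf (-0.27 to 0.00, turned by cultured KO replicate 1) and Dct (-1.65 to 0.33), Dlx3 (-1.88 to 0.35), Krt28 (-6.27 to 0.41), Mlana (-2.29 to 0.62) and Tyrp1 (-2.43 to 0.48), turned by fresh KO replicate 2. The cause was not tested. Signals near the culture floor limit what can be read for genes low in cultured cells, such as 9 of the 62 called genes named.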

Other observations

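The genes given here stand outside the lists and were chosen, with their direction, after their values were seen. E2f8, a repressor of late cell cycle transcription, had a difference of -1.50 (SE 0.28), with changes of -0.98 in culture and 0.52 in fresh cells. Timeless, a replication fork protection gene, had one of -1.27 (SE 0.24), the mitotic kinase gene Pbk -1.29 (SE 0.21), Cdca3, which acts at mitotic entry, -1.20 (SE 0.20), and H2ax, the histone marked at DNA breaks, -1.04 (SE 0.18). In each of the 5 the groups did not overlap in either condition, but they were chosen with their values seen. For scale, 464 of all 9851 genes (4.71%) were lower in cultured KO and higher in fresh KO without overlap. Tubulin genes went both ways: Tubb5 had changes of -0.07 in culture and 0.48 in fresh cells (difference -0.55, SE 0.10), and Tubb2b of 1.27 and -0.10 (difference 1.37, SE 0.24).

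Among genes with a higher culture effect, Txnip, the thioredoxin inhibitor gene, had changes of 1.17 in culture and -0.38 in fresh cells, and the potassium channel gene Kcnk2 of 1.79 and -0.13. Pof1b, an actin-binding protein gene of epithelia, had changes of 0.95 and -0.36, and Ripk4, a kinase gene needed for epidermal differentiation, of 0.53 and -0.29. For Trpm3, a cation channel gene (-0.05 and -1.82), and Zbtb20, a zinc finger repressor gene (-0.01 and -0.89), the change lay in the fresh cells. The T cell gene Cd3e read 6479 to 6822 on the cultured arrays, where Cd3d and Cd3g read 4.49 to 5.01.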
